A study of Mus musculus with 34 samples.

Results

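The genes described here are 40 cell cycle and DNA replication genes: cyclins, cyclin-dependent kinases and their CDC25 activators, replication licensing and fork factors, mitotic genes, and the inhibitors and pocket-protein genes that hold cells in G1. They were taken by name from a written list of genes, which was drawn up with earlier results of these data known. All 40 are among the 53655 genes of the deposited tables, and all 40 had enough counts to be tested. The study made mouse epiblast stem cells (EpiSC) from embryonic stem cells of several inbred strains, differentiated the EpiSC to definitive endoderm (DE), and sequenced RNA from both. There were 34 libraries from 18 cell lines of 7 strains, and 16 lines gave a library of each cell type. A cell line is the replicate, and the labels do not say whether the lines of a strain came from separate embryos.

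EpiSC are pluripotent cells that resemble the epiblast after implantation. Their feeder layer was of irradiated mouse embryonic fibroblasts, and the medium held activin A at 20 ng/mL, FGF at 12.5 ng/mL and a tankyrase inhibitor at 175 nM. For DE, cells were plated on laminin for 5 h in the EpiSC factors. They then received 3 uM CHIR, a GSK3 inhibitor that activates Wnt signalling, with 40 ng/mL activin A for 16 h, and 100 ng/mL activin A with 100 nM of the BMP receptor inhibitor LDN-193189 for 24 h. After these 40 h, CXCR4+ cells were collected on magnetic columns, so the DE libraries hold a selected population. The 17 EpiSC libraries were from C57BL/6J (5), PWK/PhJ (3), NOD/ShiLtJ (2), NZO/HiLtJ (2), WSB/EiJ (2), CAST/EiJ (2) and DBA/2J (1). The 17 DE libraries were from C57BL/6J (5), PWK/PhJ (4), NOD/ShiLtJ (2), NZO/HiLtJ (2), WSB/EiJ (2), CAST/EiJ (1) and DBA/2J (1). No line carried a transgene or deletion named in the labels, and all lines of a cell type had the same culture conditions. EpiSC libraries were polyA-selected stranded libraries, whereas DE libraries were made from cDNA amplified for 12 cycles from a low input, so the library kit and the cell type cannot be told apart.

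As background, a cell that enters the cycle first makes D cyclins, which bind CDK4 and CDK6 and phosphorylate the RB1 protein, releasing E2F factors. E2F factors switch on E cyclins, CDK2 and the genes that license and copy DNA, and later B-MYB, bound to the MuvB core, and FOXM1 switch on the mitotic genes. In resting and early G1 cells the DREAM complex, which holds the same MuvB core, represses these genes. Pluripotent cells of the mouse are known for fast cycles with a short G1 phase.

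Levels are given as CPM, the counts of a gene scaled to a common library size. Libraries held 25584647 to 33831684 counted reads in EpiSC (median 27701853) and 23772045 to 67722013 in DE (median 27977897). All 7 endoderm markers examined were higher in DE than in EpiSC, with Sox17 at 0.487 to 27.8 CPM in EpiSC and 365 to 1440 in DE. Of 7 EpiSC markers, 5 were lower in DE (Pou5f1, Sox2, Nanog, Zic2 and Dnmt3b), and the epiblast genes Fgf5 and Otx2 were higher, with log2 fold changes of 2.46 and 1.96. Pou5f1, a pluripotency factor, was at 385 to 719 CPM in EpiSC and 0.842 to 87.9 in DE, and NOD/ShiLtJ line AC576 was the DE library with the most Pou5f1 and the least Sox17. Markers of fibroblasts, the feeder cells, were present in both cell types. Their summed level over 15 genes was 157 to 4960 CPM in EpiSC and 105 to 1910 in DE. All 15 were lower in DE, where Thy1, Dcn, Lum, Twist2 and Prrx1 were at 0 in 1 to 5 libraries each. The 2 NOD/ShiLtJ DE libraries had the highest summed level of these markers among DE, at 1910 CPM in AC576 and 1590 CPM in AC595. Among the markers, Col1a2 and Col5a1 were at no less than 26.4 and 32.2 CPM in any DE library. Which cells the marker RNA came from was not tested. In bulk RNA, fewer cells of a type and less RNA per cell cannot be told apart, and this holds for every level below.

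DE and EpiSC were compared with edgeR's quasi-likelihood test with strain as a term, and p-values were adjusted by the Benjamini-Hochberg method over the 20907 genes tested. A gene was called at an adjusted p under 0.05. Of the 40 genes, 33 were called (13 higher and 20 lower in DE), where 77.2% of all genes tested were called. By direction, 37.3% of all genes were called higher and 39.9% lower. The median absolute log2 fold change was 0.48 over the 40 genes and 1.05 over all genes, and the median log2 fold change was -0.13 and -0.06. Of the 40, 9 were called with a change of at least 2-fold, all of them lower in DE, where 50.4% of all genes were called at that size (27.9% lower and 22.5% higher). These 9 were Cdk6, Cdkn2a, Ccnd1, Cdkn1b, Ccnd2, Mki67, Top2a, Cdkn2c and Bub1, and Pcna lay just short of 2-fold, at a log2 fold change of -0.998. The libraries of the 2 cell types did not overlap for 5 genes and overlapped for the other 35. Without overlap, Ccnd1, Cdk6, Top2a and Cdkn1b were lower and Cdk4 was higher in DE, where 10.0% of all genes were lower and 8.91% higher in that way. Within the 16 lines with both cell types, 15 genes changed in the same direction in every line, 13 lower and 2 (Cdk2 and Cdk4) higher in DE, where 35.9% of all genes did so (18.6% lower and 17.3% higher).

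**Figure D1:**
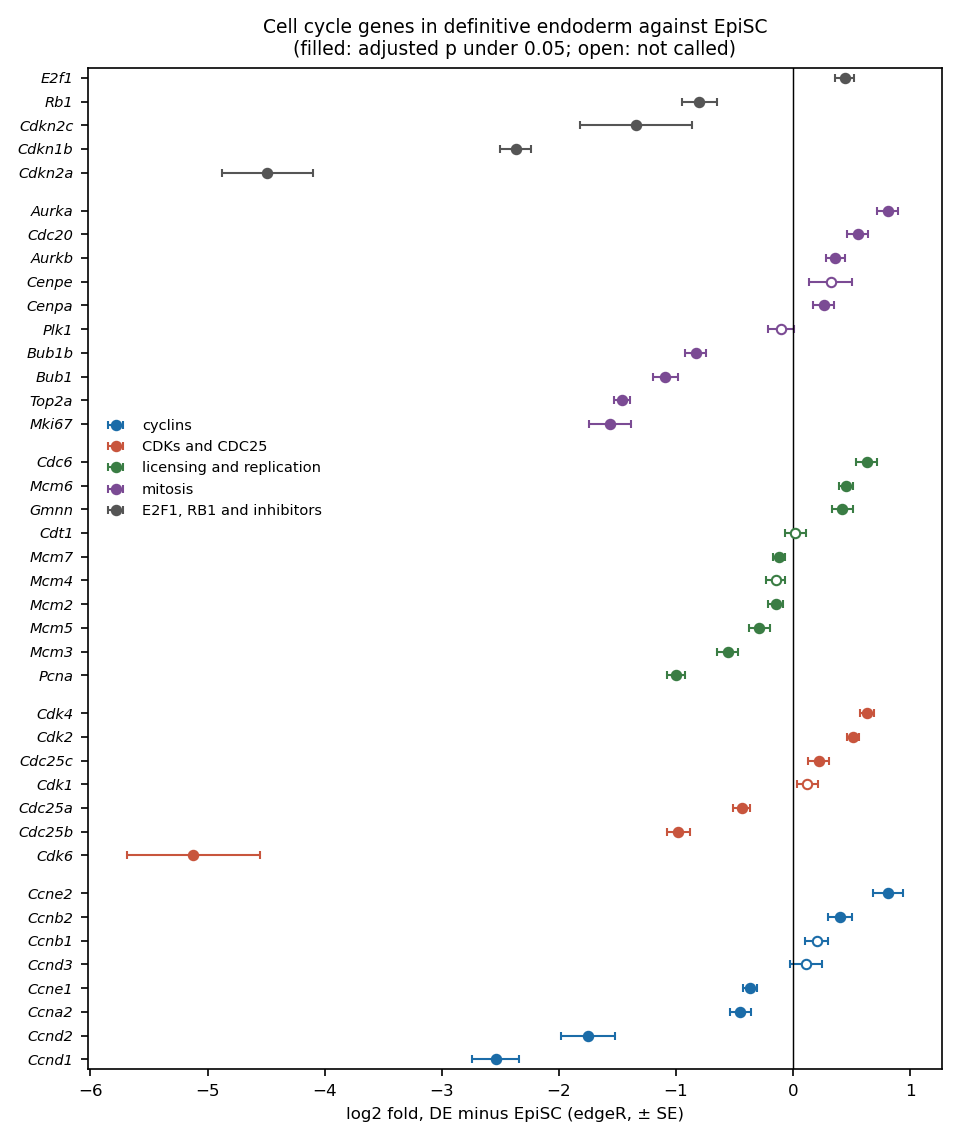
Log2 fold change of DE against EpiSC (x axis) for each of the 40 genes, ordered by role, with its standard error. Most genes lie within 1 log2 unit of 0, and the points far to the left are Cdk6, Cdkn2a, Ccnd1, Cdkn1b and Ccnd2.

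The D cyclins, which act in G1, gave some of the largest differences, and the 3 genes did not move together. Ccnd1 was at 146, 238 and 279 CPM in EpiSC (lowest, median and highest of 17 libraries) and at 12.9, 39.4 and 110 CPM in DE. Every DE library lay below every EpiSC library, with the highest DE value in NOD/ShiLtJ line AC576. The log2 fold change of Ccnd1 was -2.54 ± 0.20 (SE, adjusted p = 9.09e-13), and it was lower in DE in 16 of 16 lines. Ccnd2 was at 63.3, 179 and 296 CPM in EpiSC and at 21.6, 52.2 and 195 CPM in DE, and the groups overlapped. It was lower in DE in 15 of 16 lines and higher in AC576 (63.3 to 195 CPM), and its log2 fold change was -1.75 ± 0.23 (adjusted p = 4.99e-08). Ccnd3, the third D cyclin, was not called. It was at 54.5, 83 and 104 CPM in EpiSC and 48.4, 75.5 and 304 CPM in DE, where 304 was again AC576 (log2 fold change 0.11 ± 0.14, adjusted p = 0.495).

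Compared per kilobase of exon, so that genes of different length can be set side by side, the D cyclins together had a median of 78.7 CPM per kb in EpiSC (51.2 to 98.7) and 21.4 in DE (12.8 to 78.7, the highest in AC576). Exon length here is that of all annotated exons of a gene, merged over its transcripts. The transcripts expressed can be shorter, so levels and shares per kb also depend on the annotation, here and below. Ccnd1 made up a median of 61.9% of that sum in EpiSC and 34.3% in DE. Ccnd2 made up 27.1% and 26.1%, and Ccnd3 made up 12.0% and 39.6%, as a description without a test. When the mean log2 CPM of the fibroblast markers entered the fit as a covariate, the change of Ccnd2 was -0.21 (adjusted p = 0.51), that of Ccnd1 was -1.60 and still called, and that of Ccnd3 was 0.61 (adjusted p = 0.0337). The covariate itself differed between the cell types, with a mean of 5.94 in EpiSC and 2.605 in DE. Cell type and covariate are therefore hard to tell apart in that fit, here and for the genes below. A lost or kept call does not decide between them. Within C57BL/6J lines alone the change of Ccnd2 was -2.21. A part of the Ccnd1 exons (23.4%) lies on the strand opposite LTO1 exons, and the strand setting of the counting is not given in the sources used here.

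The kinases that D cyclins bind moved in opposite directions. Cdk4 was at 558, 639 and 703 CPM in EpiSC and 794, 929 and 1550 CPM in DE, with no overlap. It rose by a log2 fold change of 0.63 ± 0.06 (adjusted p = 1.57e-10), in 16 of 16 lines. Cdk6 was at 40.4, 118 and 280 CPM in EpiSC and 0.0294, 2.56 and 17 CPM in DE, again with no overlap. It had 64067 counts over the EpiSC libraries and 2602 over the DE libraries, and a single count in DE line 1 of C57BL/6J. The log2 fold change of Cdk6 was -5.12 ± 0.57 (adjusted p = 2.7e-09), the largest among the 40 genes, with all 16 lines lower. With the fibroblast covariate it was -3.24 and still called. Per kilobase, Cdk4 was the highest of the 40 genes in both cell types, at medians of 197 CPM per kb in EpiSC and 286 in DE. Cdk6 made up a median of 4.15% of the sum of both kinases in EpiSC and 0.061% in DE. Cdk4 shares 19.7% of its exon length with Tspan31 on the opposite strand.

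**Figure D2:**
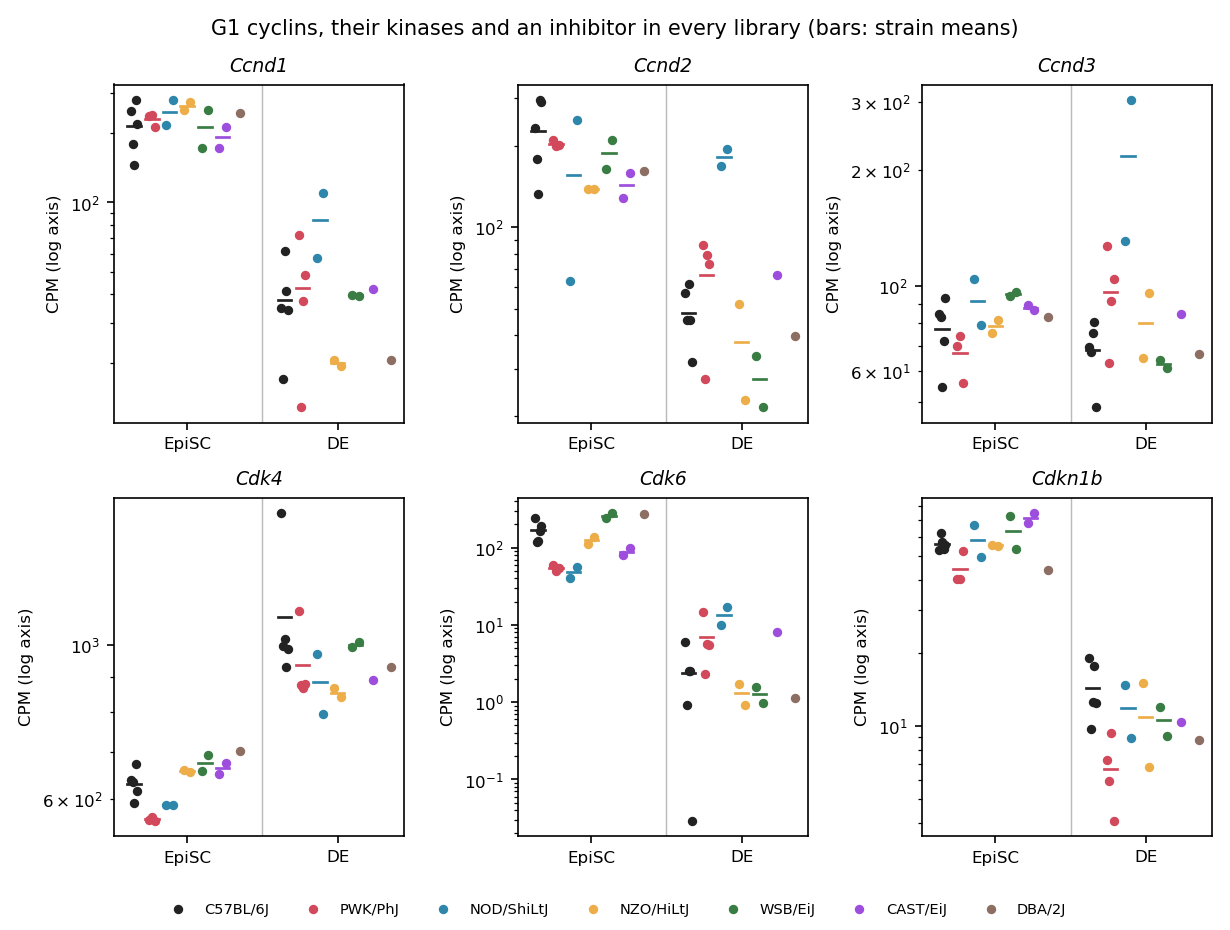
Normalised expression (CPM, log axis) of the D cyclins, Cdk4, Cdk6 and Cdkn1b, the p27 inhibitor, in each library, by cell type. Ccnd1, Cdk6 and Cdkn1b are lower in every DE library than in any EpiSC library, Cdk4 is higher in every DE library, and Ccnd3 overlaps between the cell types.

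The genes that hold or release cells in G1 were E2f1, Rb1 and 3 CDK inhibitor genes. Of these 5, the inhibitors and Rb1 were lower in DE and E2f1 was higher, with a median log2 fold change of -1.34. Cdkn1b, which encodes the CDK2 inhibitor p27, was at 40.1, 55.2 and 75 CPM in EpiSC and 4.09, 9.76 and 19 CPM in DE. No library overlapped, and all 16 lines were lower (log2 fold change -2.37 ± 0.13, adjusted p = 6.6e-17). Cdkn2a, which encodes the CDK4 and CDK6 inhibitor p16 and the p53 activator p19Arf from the same locus, was at 1.65, 16 and 37 CPM in EpiSC and 0.0294, 0.602 and 3.36 CPM in DE. The counts do not separate the 2 transcripts. Its change was -4.49 ± 0.39 (adjusted p = 8.24e-12), with 16 of 16 lines lower and 8320 against 461 summed counts.

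The lowest EpiSC value of Cdkn2a was in C57BL/6J line 1, which also had the lowest summed fibroblast level of any EpiSC library (157 CPM). With the fibroblast covariate the change of Cdkn2a was -2.15 and still called, and that of Cdkn1b was -2.25. Cdkn2c, another CDK4 and CDK6 inhibitor gene, was nearly silent, with 239 counts summed over EpiSC and 120 over DE, where 5 libraries had 0 counts. Its change of -1.34 ± 0.48 (adjusted p = 0.0128) was not called with the fibroblast covariate (adjusted p = 0.293) or within C57BL/6J lines (-0.53, adjusted p = 0.537). Rb1, the pocket protein that binds E2F factors, was at 12.7, 19.5 and 36.2 CPM in EpiSC and 4.84, 11.3 and 23.5 in DE, and it was lower in 13 of 16 lines (log2 fold change -0.80 ± 0.15, adjusted p = 2.87e-05). The exons of Rb1 share 8.1% of their length with Rcbtb2 and 6.8% with Lpar6, both on the opposite strand. E2f1, an activating E2F factor, was at 24.1, 35.5 and 40.9 CPM in EpiSC and 30.5, 47.8 and 58.6 in DE, and it was higher in 14 of 16 lines (log2 fold change 0.44 ± 0.08, adjusted p = 1.71e-05).

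The E, A and B cyclins, which act from the G1/S boundary to mitosis, changed by less than 2-fold. The E cyclins, partners of CDK2, moved apart. Ccne1 was at 111, 147 and 218 CPM in EpiSC and 87.6, 109 and 173 CPM in DE, and it fell in 16 of 16 lines (log2 fold change -0.37 ± 0.06, adjusted p = 4.1e-06). Ccne2 was at 23.1, 36.1 and 66.3 CPM in EpiSC and 39.6, 68.1 and 83.3 CPM in DE. It rose in 14 of 16 lines and fell in both NOD/ShiLtJ lines (log2 fold change 0.81 ± 0.13, adjusted p = 1.09e-06). Together the E cyclins were at a median of 66.4 CPM per kb in EpiSC and 63.1 in DE, and Ccne2 made up 15.6% of that sum in EpiSC and 29.6% in DE. The exons of Ccne2 share 17.4% of their length with Ints8 on the opposite strand.

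Ccna2, the S and G2 phase cyclin, was at 201, 248 and 308 CPM in EpiSC and 108, 177 and 268 CPM in DE, lower in 14 of 16 lines (log2 fold change -0.45 ± 0.09, adjusted p = 4.28e-05). With the fibroblast covariate it was not called (-0.36, adjusted p = 0.0667), and 12.5% of its exon length lies opposite Exosc9 exons. Ccnb1, a partner of CDK1 in mitosis, overlapped widely at 194, 331 and 463 CPM in EpiSC and 229, 308 and 528 in DE. It was higher in 8 lines and lower in 8, and it was not called (log2 fold change 0.20 ± 0.10, adjusted p = 0.0586). Ccnb2 was at 67.2, 85.9 and 133 CPM in EpiSC and 68.3, 134 and 158 in DE (log2 fold change 0.40 ± 0.10, adjusted p = 0.000444, higher in 12 of 16 lines). Within C57BL/6J lines its change was 0.09 (adjusted p = 0.658). The B cyclin sum was 136 CPM per kb in EpiSC and 154 in DE. Processed pseudogenes of Ccnb1, Ccnb2 and Ccnd3 exist in the annotation, so their counts are uncertain where reads fit both copies.

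Among the other kinases and the CDC25 phosphatases, which remove the inhibitory phosphates of CDKs, the changes were small and went both ways. Over the 7 genes with Cdk4 and Cdk6 included, 3 were higher and 3 lower. Cdk2 was at 76, 95.1 and 114 CPM in EpiSC and 90.1, 139 and 171 CPM in DE, higher in all 16 lines (log2 fold change 0.51 ± 0.05, adjusted p = 3.7e-10). Cdk1, the mitotic kinase, was not called, at 157, 206 and 272 CPM in EpiSC and 160, 226 and 311 in DE (log2 fold change 0.12 ± 0.09, adjusted p = 0.195). Cdc25a, which acts on CDK2 at the start of S phase, was at 109, 149 and 191 CPM in EpiSC and 73.6, 109 and 137 in DE (log2 fold change -0.44 ± 0.07, adjusted p = 1.66e-06). Cdc25b was at 16.5, 22.8 and 33.4 CPM in EpiSC and 7.16, 9.95 and 17.9 in DE (log2 fold change -0.98 ± 0.10, adjusted p = 7.57e-10). Both Cdc25a and Cdc25b were lower in 16 of 16 lines. Cdc25c was higher in 11 of 16 lines, at 27.9, 31.1 and 41.2 CPM in EpiSC and 20.2, 38.5 and 62.9 in DE. Its change of 0.22 ± 0.09 (adjusted p = 0.0179) was not called when the line was a replicate block (0.20, adjusted p = 0.0856) or within C57BL/6J lines (0.02, adjusted p = 0.897), and its exons share 12.7% of their length with Gm3550 on the opposite strand.

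The licensing and fork genes build the MCM2-7 helicase onto origins and copy DNA, and 3 of 10 were higher and 5 lower in DE. The 6 helicase subunits, which work as 1 ring, did not change in step. Mcm3 fell in all 16 lines, from 329, 381 and 556 CPM in EpiSC to 188, 280 and 419 in DE (log2 fold change -0.56 ± 0.09, adjusted p = 1.43e-06). Mcm6 rose in 15 of 16 lines, from 305, 380 and 424 CPM to 411, 510 and 609 (log2 fold change 0.45 ± 0.06, adjusted p = 1.24e-08). Mcm5 was at 305, 403 and 499 CPM in EpiSC and 234, 327 and 475 in DE (log2 fold change -0.29 ± 0.09, adjusted p = 0.00383). The remaining subunits moved by at most 0.15 on the log2 scale. Mcm2 changed by -0.15 ± 0.06 (adjusted p = 0.0288), Mcm7 by -0.12 ± 0.05 (adjusted p = 0.046) and Mcm4 by -0.15 ± 0.08 (adjusted p = 0.0827, not called). The calls of Mcm2 and Mcm7 did not hold with the line as a replicate block (adjusted p = 0.06 and 0.0761) or without the NOD/ShiLtJ libraries (-0.12 and -0.08, adjusted p = 0.107 and 0.201). That of Mcm5 did not hold with the fibroblast covariate (-0.21, adjusted p = 0.285). The summed MCM2-7 level was 550 CPM per kb in EpiSC and 523 in DE, and the share of Mcm6 in it went from a median of 14.4% (12.5% to 16.8%) to 21.6% (19.4% to 23.1%), with no overlap.

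Pcna, the sliding clamp of DNA polymerases, had the largest change of the licensing and fork genes. It was at 180, 330 and 414 CPM in EpiSC and 108, 153 and 232 CPM in DE, and the overlap came from the low EpiSC values of PWK/PhJ and CAST/EiJ described below. Its log2 fold change was -1.0 ± 0.08 (adjusted p = 3.27e-12), with 16 of 16 lines lower. Pcna has 2 annotated processed pseudogenes, so reads that fit several copies make its counts uncertain. Cdc6, which loads MCM onto origins, rose from 54.9, 73.5 and 90.6 CPM to 73.6, 118 and 160 (log2 fold change 0.63 ± 0.09, adjusted p = 2.25e-07, 14 of 16 lines). Its partner Cdt1 was not called, at 47, 76.9 and 102 CPM in EpiSC and 59.8, 71.2 and 94.1 in DE (log2 fold change 0.02 ± 0.09, adjusted p = 0.881). Gmnn, the CDT1 inhibitor geminin, was at 51.6, 59.3 and 71.4 CPM in EpiSC and 57, 72.2 and 143 in DE (log2 fold change 0.42 ± 0.09, adjusted p = 0.000149, 12 of 16 lines higher). Within C57BL/6J lines Gmnn changed by 0.40 (adjusted p = 0.128).

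Of the 10 mitotic genes, 4 were higher and 4 lower in DE, and the larger changes were falls. Top2a, which untangles sister DNA, was at 739, 924 and 1290 CPM in EpiSC and 273, 346 and 453 in DE, with no overlap (log2 fold change -1.46 ± 0.07, adjusted p = 1.67e-17). Mki67, which encodes the proliferation antigen Ki-67 that coats mitotic chromosomes, was at 147, 239 and 751 CPM in EpiSC and 54.4, 96.8 and 149 in DE (log2 fold change -1.56 ± 0.18, adjusted p = 4.36e-09). Its highest value was in EpiSC line 1 of C57BL/6J, and the lowest EpiSC value fell just under the highest DE value. The spindle checkpoint kinase genes also fell. Bub1 was at 177, 223 and 252 CPM in EpiSC and 49.7, 102 and 181 in DE (log2 fold change -1.09 ± 0.11, adjusted p = 2.6e-10). Bub1b was at 154, 214 and 243 CPM in EpiSC and 66.8, 117 and 166 in DE (log2 fold change -0.83 ± 0.09, adjusted p = 1.1e-09). Top2a, Mki67, Bub1 and Bub1b were each lower in 16 of 16 lines.

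The mitotic genes that rose were Aurka, Cdc20, Aurkb and Cenpa. Aurka, the centrosome kinase, was at 108, 146 and 177 CPM in EpiSC and 176, 257 and 378 in DE, higher in 15 of 16 lines (log2 fold change 0.81 ± 0.09, adjusted p = 2.06e-09). Cdc20, the activator of the anaphase-promoting complex, was at 203, 241 and 290 CPM in EpiSC and 204, 372 and 457 in DE (log2 fold change 0.55 ± 0.09, adjusted p = 9.83e-07, 14 of 16 lines higher). Aurkb, the centromere kinase, changed by 0.36 ± 0.08 (adjusted p = 0.000221) and the centromeric histone gene Cenpa by 0.26 ± 0.09 (adjusted p = 0.00825), each higher in 12 of 16 lines. Within C57BL/6J lines neither was called (0.21, adjusted p = 0.232 for Aurkb and 0.12, adjusted p = 0.625 for Cenpa). The call of Cenpa also ended with the line as a replicate block (0.21, adjusted p = 0.0507). Plk1 (log2 fold change -0.10 ± 0.11, adjusted p = 0.438) and the kinetochore motor gene Cenpe (0.32 ± 0.18, adjusted p = 0.0994) were not called. Without EpiSC line 1, Cenpe was called at 0.44 (adjusted p = 0.00858).

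Over all genes tested, longer genes had lower log2 fold changes, and among the 40 genes the 7 with over 8 kb of exon had the lowest median. Exon length and the log2 fold change had a Spearman correlation across genes of -0.28 over the 14947 tested genes with a length and -0.27 over the 40 genes. It was -0.46 over the 94 further cell cycle genes described below. Genes are not independent replicates, and all points share the same libraries and kits, so these are descriptions. Over all tested genes the median log2 fold change was 0.33 for exon lengths up to 3 kb, 0.04 from 3 to 5 kb, -0.38 from 5 to 8 kb and -0.87 above 8 kb. Among the 40 genes the medians were 0.13 (10 genes), -0.13 (18 genes), 0.26 (5 genes) and -1.46 (7 genes) in the same ranges. Of the 7 genes above 8 kb, Cdk6 (13.99 kb), Mki67 (10.06 kb), Ccnd2 (9.41 kb), Top2a (9.01 kb) and Cdc25a (8.02 kb) fell, whereas Ccnd3 (8.78 kb) and Cenpe (8.62 kb) were not called, at 0.11 and 0.32. Cdkn1b (4.55 kb), Ccnd1 (4.71 kb), Pcna (2.4 kb) and Cdkn2a (1.17 kb), which also fell, are shorter. The part of length in the changes was not tested.

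**Figure D3:**
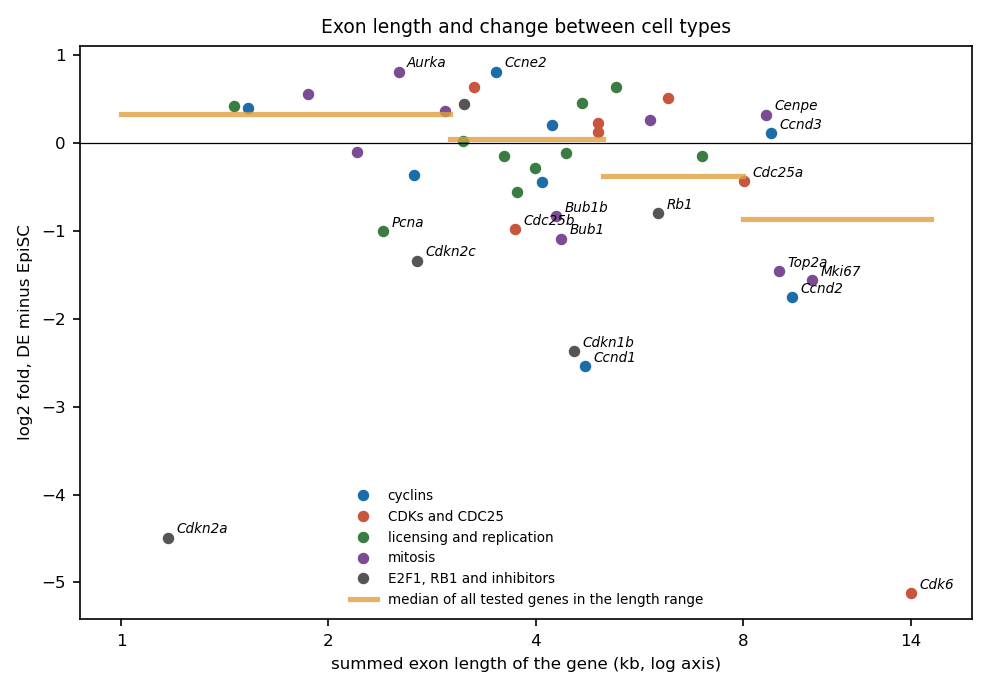
Log2 fold change of DE against EpiSC (y axis) against exon length in kb (x axis, log scale) for the 40 genes, with the median of all tested genes in each length range as orange lines. The orange medians go down from 0.33 to -0.87 with length. Of the 7 genes above 8 kb, 5 lie below 0 and Ccnd3 and Cenpe lie just above it.

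Promoter sequences of the genes that parted ways are shown because genes of the same cycle phase moved in opposite directions. RefSeq windows on GRCm38.p6 from 250 bases before to 50 bases after each transcript start held 31 of the 40 genes. The search covered the CCAAT box (CCAAT), the cell cycle homology region, or CHR, which binds DREAM and B-MYB complexes (TTTGAA or TTCGAA), and E2F motifs (TTCCCGC or TTGGCGC), each on both strands. The reverse complement of an E2F motif can share letters with a CCAAT box, as in Ccnb1. Below are the 120 bases before the start of 6 genes on the minus strand, 5′ to 3′, with motif letters in capitals. They are Top2a at chr11:99024190-99024309, Mki67 at chr7:135716380-135716499, Aurka at chr2:172370571-172370690, Ccnb2 at chr9:70421555-70421674, Mcm6 at chr1:128359706-128359825 and Mcm3 at chr1:20820313-20820432.
Top2a: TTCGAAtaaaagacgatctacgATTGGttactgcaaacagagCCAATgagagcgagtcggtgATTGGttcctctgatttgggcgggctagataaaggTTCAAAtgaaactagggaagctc
Mki67: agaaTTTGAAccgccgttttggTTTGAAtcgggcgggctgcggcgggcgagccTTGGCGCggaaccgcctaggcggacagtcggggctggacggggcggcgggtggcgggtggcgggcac
Aurka: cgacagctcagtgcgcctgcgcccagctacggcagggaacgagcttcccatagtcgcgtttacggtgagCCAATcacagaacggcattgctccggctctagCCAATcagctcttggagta
Ccnb2: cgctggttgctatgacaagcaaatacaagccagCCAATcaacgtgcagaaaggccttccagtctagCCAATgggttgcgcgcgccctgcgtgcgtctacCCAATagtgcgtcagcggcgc
Mcm6: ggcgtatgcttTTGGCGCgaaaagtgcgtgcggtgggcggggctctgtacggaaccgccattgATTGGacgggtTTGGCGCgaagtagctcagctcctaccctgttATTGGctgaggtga
Mcm3: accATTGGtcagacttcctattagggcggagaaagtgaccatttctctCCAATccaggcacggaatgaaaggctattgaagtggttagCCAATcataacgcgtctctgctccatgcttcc

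These stretches hold 3 CCAAT boxes and 2 CHR matches in Top2a, 2 CHR matches and 1 E2F match in Mki67, and 2 CCAAT boxes in Aurka. Ccnb2 has 3 CCAAT boxes there, Mcm6 has 2 CCAAT boxes and 2 E2F matches, and Mcm3 has 3 CCAAT boxes. Other matches lay in the windows but outside these stretches, at positions counted from the transcript start. Aurka had a CHR match from position 32, and Ccnb2 had CHR matches from positions -167 and 4. Mcm3 had E2F matches from positions 19, 39 and 42. Mki67 had CCAAT boxes and Top2a had further CCAAT boxes and CHR matches. The stretches alone therefore do not show which of these genes lack a motif. In the whole windows, CHR letters were in 8 of the 9 mitotic genes with a window (88.9%), against 21.7% of the 27025 genes with one. E2F letters were in 6 of 8 licensing and fork genes (75.0%), against 7.79% of all genes. A CCAAT box was in 25 of 31 members (80.6%), against 41.1%. Genes with each motif moved in both directions. Of the 13 members with CHR letters, 4 were higher, 7 lower and 2 not called in DE, and of the 13 with E2F letters, 3 were higher, 7 lower and 3 not called. Of the 25 with a CCAAT box, 6 were higher, 14 lower and 5 not called. A match describes the letters only and is not a binding site or a cause.

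Further genes of the same pathways, in lists written with earlier results of these data known, also went both ways. Of 40 other replication genes, 16 were higher and 18 lower in DE, with a median log2 fold change of -0.02. The largest changes were in Pole, the leading-strand polymerase (-2.37), Pola1, the primase-bound polymerase (-1.28), Dbf4, the activator of CDC7 (-1.08), and Rfc1, a clamp loader subunit (-1.07). Of 28 other mitotic genes, 7 were higher and 15 lower, with a median of -0.32. Separase (Espl1) changed by -1.68, the kinetochore gene Spc25 by 1.53, the mitotic activator Foxm1 by -1.25 and the spindle motor gene Kif11 by -0.81. Of 26 other G1 control genes, 6 were higher and 14 lower, with a median of -0.24. The repressor E2f8 changed by -1.82, the activator E2f3 by -1.52, the p19 inhibitor gene Cdkn2d by 1.33 and the repressive factor gene E2f5 by 1.29. The medians over all genes tested and their calls are those given above.

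Strains were compared within each cell type, again with edgeR's quasi-likelihood test. Reads of all strains were placed on the C57BL/6J reference, so a difference between strains in how reads align and a difference in RNA level cannot be told apart. All contrasts against C57BL/6J share its 5 libraries of a cell type, and their values are given side by side only. In EpiSC, an F test over the 5 strains with at least 2 lines in both cell types called 17 of 40 genes, where 40.0% of the 17868 genes tested were called, so the share among the members was near the background. In DE the same test called 4 of 40 genes, where 22.3% of 19290 genes were called. The EpiSC genes included Ccnb1 (adjusted p = 1.67e-05), Cdk6 (adjusted p = 6.06e-05), Ccne1 (adjusted p = 0.000459) and Pcna (adjusted p = 0.000614), and the others were Ccna2, Ccne2, Cdk1, Cdk4, Cdc25a, Cdc25b, Gmnn, Mcm7, Aurka, Cenpa, E2f1, Rb1 and Cdkn2c. Of the 17, 10 were called in every alternative fitted (Aurka, Ccna2, Ccnb1, Ccne1, Cdc25a, Cdc25b, Cdk1, Cdk6, Gmnn and Pcna). The DE genes were Ccnd2 (adjusted p = 0.00221), Ccnd3 (adjusted p = 0.00399), Bub1 (adjusted p = 0.00776) and Pcna (adjusted p = 0.0357). Of these, Bub1 and Ccnd2 were called in every alternative, and Ccnd3 was not called without AC576 (adjusted p = 0.13). At an unadjusted p under 0.05, the counts were 25 of 40 genes in EpiSC, where 51.2% of all genes passed, and 8 of 40 in DE, where 34.6% of all genes passed. The DE F test also called 6 of 7 EpiSC markers, 6 of 7 endoderm markers and 10 of 15 fibroblast markers. The alternatives included the fibroblast covariate, with which Bub1 and Ccnd2 were still called. The part of the EpiSC and endoderm markers in the 4 DE calls was not tested. The spread between libraries of a strain was larger in DE: the biological coefficient of variation was 0.443 in DE and 0.241 in EpiSC.

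**Figure D4:**
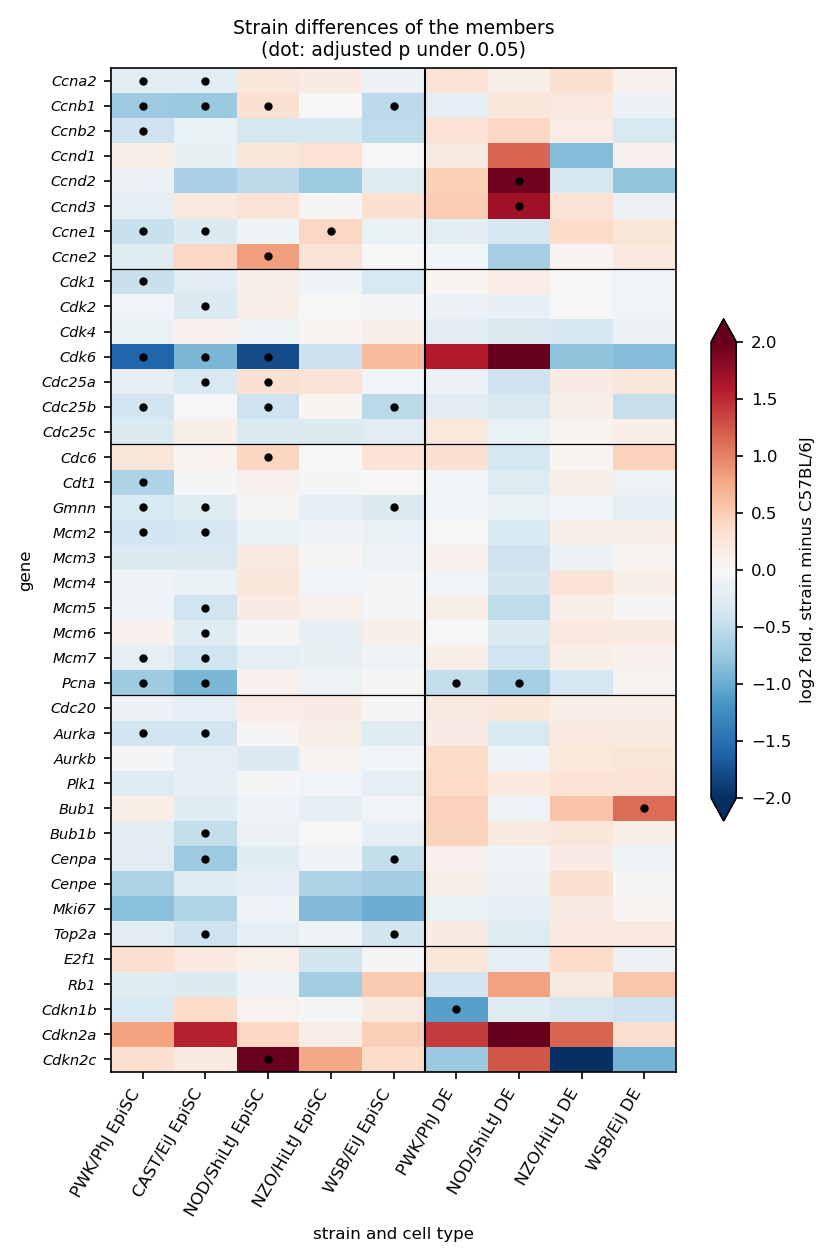
Log2 fold change of each strain against C57BL/6J (columns, by cell type) for the 40 genes (rows), with blue lower, red higher, colours ending at 2 log2 units and dots on called genes. The PWK/PhJ and CAST/EiJ EpiSC columns hold dots on 13 and 16 genes, all lower.

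In PWK/PhJ EpiSC, 13 of 40 genes were called and all were lower than in C57BL/6J, where 29.8% of all genes were called (13.7% higher and 16.1% lower). The median log2 difference of the 40 genes was -0.22, against -0.01 over all genes tested. Ccnb1 was at 199, 200 and 213 CPM in PWK/PhJ and 331, 352, 395, 331 and 323 CPM in C57BL/6J (log2 difference -0.73 ± 0.08, adjusted p = 2.05e-05). Pcna was at 207, 216 and 214 CPM against 373, 338, 330, 414 and 318 CPM (log2 difference -0.71 ± 0.10, adjusted p = 0.000127). For both genes every PWK/PhJ library was below every C57BL/6J library. Cdk6 was at 59.1, 50 and 54.4 CPM against 241, 118, 121, 164 and 193 CPM (log2 difference -1.59 ± 0.23, adjusted p = 0.000177). Ccne1 was at 115, 115 and 111 CPM against 145 to 181 CPM (-0.45 ± 0.09, adjusted p = 0.00174), and Cdk1 at 157, 163 and 163 CPM against 206 to 272 CPM (-0.44 ± 0.09, adjusted p = 0.00189). Smaller falls, of 0.20 to 0.61 on the log2 scale, were called in Ccna2, Ccnb2, Cdc25b, Cdt1, Gmnn, Mcm2, Mcm7 and Aurka, and among the 13 called genes Cdt1 alone had overlapping libraries. Of the 40 genes, 18 had no overlap, all lower, where 18.7% of all genes were lower and 15.4% higher without overlap. Aurka, Ccnb1, Ccne1, Cdk1, Cdk6, Gmnn, Mcm7 and Pcna were called in every alternative.

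CAST/EiJ EpiSC had 16 of 40 genes called, all lower than in C57BL/6J, where 31.6% of all genes were called (14.5% higher and 17.1% lower). The median log2 difference of the 40 genes was -0.24, against -0.01 over all genes. Pcna was at 180 and 194 CPM (log2 difference -0.91 ± 0.12, adjusted p = 6.26e-05) and Ccnb1 at 194 and 214 CPM (-0.75 ± 0.10, adjusted p = 6.46e-05). Cenpa was at 75.9 and 90.5 CPM against 127 to 155 CPM in C57BL/6J (-0.72 ± 0.11, adjusted p = 0.000323). Mcm7 was at 361 and 402 CPM against 491 to 524 CPM (-0.40 ± 0.06, adjusted p = 0.00022), and Cdk6 at 79.6 and 97.8 CPM (-0.91 ± 0.25, adjusted p = 0.0158). All 16 called genes had CAST/EiJ values below every C57BL/6J library, and the other called genes were Ccna2, Ccne1, Cdk2, Cdc25a, Gmnn, Mcm2, Mcm5, Mcm6, Aurka, Bub1b and Top2a. Of the 40 genes, 19 were lower and 2 higher without overlap, where 22.9% of all genes were lower and 20.3% higher in that way. In the same contrast 6 of 7 endoderm markers were called higher, with a median log2 difference of 1.95, and of 7 EpiSC markers 2 were called higher and 2 lower. Their part in the lower cell cycle genes was not tested. With only 2 CAST/EiJ lines the count was 4 without WM080 and 9 without WM078. Ccnb1, Cenpa, Mcm7 and Pcna were called in every alternative fitted.

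**Figure D5:**
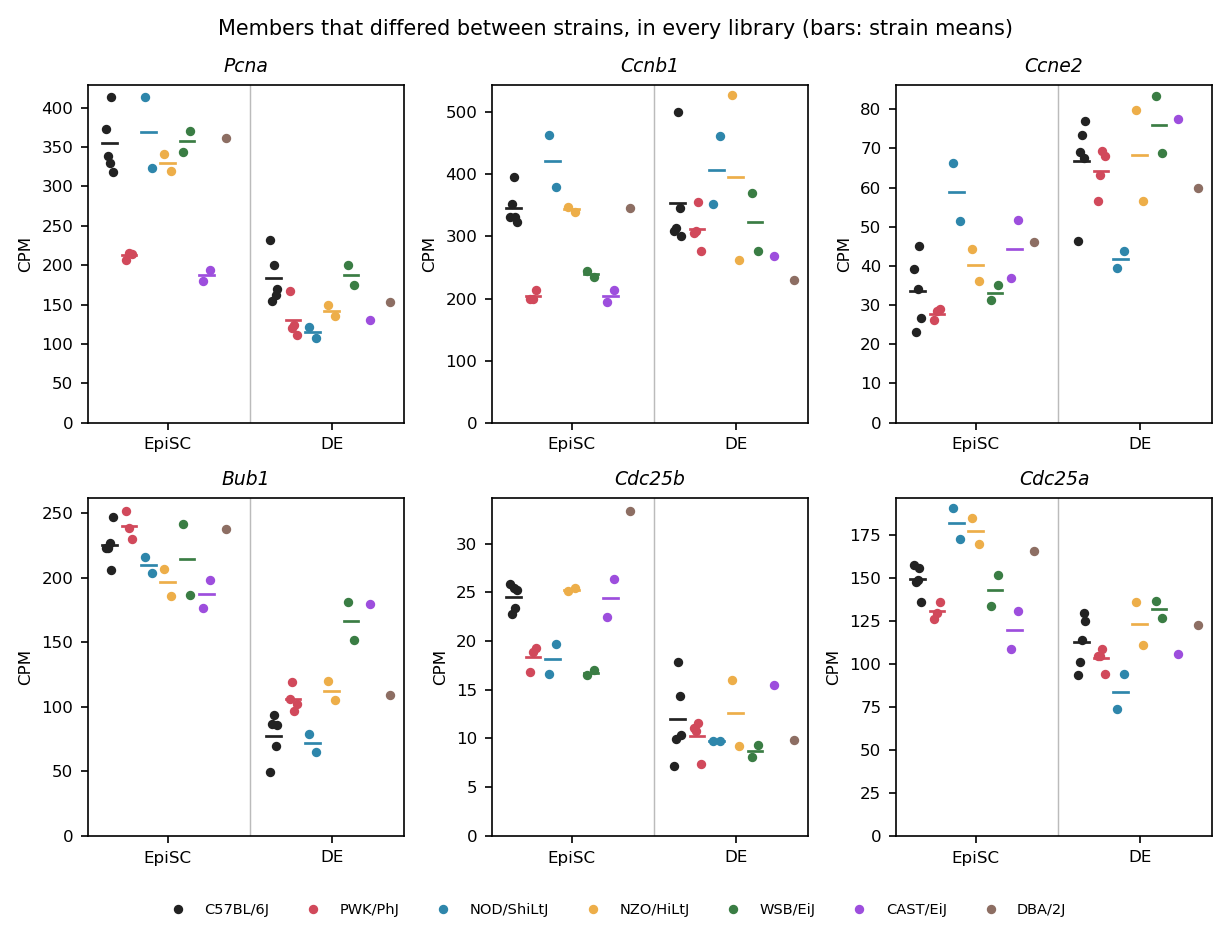
Normalised expression (CPM, linear axis) of Pcna, Ccnb1, Ccne2, Bub1, Cdc25b and Cdc25a in each library, by strain, with EpiSC and DE side by side. Pcna and Ccnb1 in EpiSC are lowest in PWK/PhJ and CAST/EiJ, and in DE Bub1 is high in both WSB/EiJ libraries and in the CAST/EiJ library.

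Among the further lists, most called genes were also lower in PWK/PhJ and CAST/EiJ. In PWK/PhJ EpiSC, 15 of 28 other mitotic genes were lower and 1 higher, 8 of 40 other replication genes were lower and 2 higher, and 5 of 26 other G1 control genes were lower and 2 higher. The mitotic genes included securin (Pttg1, 0.76), Ndc80 (-0.68), Cep55 (-0.48) and Spc24 (-0.44). The replication genes included Rrm2 (-0.68), Tk1 (-0.62), Gins2 (-0.60) and Mcm10 (-0.56), and the G1 control genes Cdkn1a (0.93), Mycn (0.91), Lin52 (-0.79) and Pkmyt1 (-0.77). In CAST/EiJ EpiSC, 12 of 28 mitotic genes were lower and 1 higher, 12 of 40 replication genes were lower and 1 higher, and 5 of 26 G1 control genes were lower. Pttg1 differed by 0.69 and Prc1 by -0.65 among the mitotic genes, Pole by -0.94 and Mcm10 by -0.63 among the replication genes, and Myc by -1.41 and Lin52 by -0.45 among the G1 control genes. None of the 15 fibroblast markers was called by edgeR in either contrast, with 1 at an unadjusted p under 0.05 in PWK/PhJ and 0 in CAST/EiJ, and their median log2 differences were 1.24 and 0.73. In PWK/PhJ EpiSC, edgeR called 0 of 7 endoderm and 0 of 7 EpiSC markers, with 1 and 0 at an unadjusted p under 0.05 and median log2 differences of -1.24 and -0.17.

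In NOD/ShiLtJ EpiSC, 7 of 40 genes were called, 5 higher and 2 lower, where 12.9% of all genes were called (5.98% higher and 6.94% lower). Cdk6 was at 40.4 and 56.3 CPM, the lowest of any EpiSC strain mean, against 118 to 241 CPM in C57BL/6J (log2 difference -1.78 ± 0.27, adjusted p = 0.00121). Cdk6 was the 1 gene of the 7 that was called in every alternative. Ccne2 was at 66.3 and 51.5 CPM against 39.2, 23.1, 34.1, 45.2 and 26.8 CPM (0.83 ± 0.22, adjusted p = 0.0243), without overlap. Ccnb1 (0.30), Cdc25a (0.31) and Cdc6 (0.43) were also higher and Cdc25b lower (-0.42). Cdkn2c, with 74 counts in NOD/ShiLtJ and 44 in C57BL/6J, was higher by 1.97 (adjusted p = 0.0222). The 7 endoderm markers had a median log2 difference of -1.93 in this contrast, and 5 had an unadjusted p under 0.05 but none was called. The count was 1 without AC576, 3 without C57BL/6J line 44, and 4 without C57BL/6J line 4 or PWK/PhJ line AC705.

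NZO/HiLtJ EpiSC differed in 1 of 40 genes, where 5.52% of all genes were called (2.70% higher and 2.82% lower). Ccne1 was at 218 and 208 CPM against 145 to 181 CPM in C57BL/6J (log2 difference 0.42 ± 0.10, adjusted p = 0.0234), and the call was lost without either NZO/HiLtJ library, while without C57BL/6J line 1 or 5-1 the count was 2. WSB/EiJ EpiSC differed in 5 of 40 genes, all lower, where 7.41% of all genes were called (3.45% higher and 3.96% lower). Ccnb1 was at 245 and 235 CPM (-0.52 ± 0.10, adjusted p = 0.00403), Cdc25b at 16.5 and 17 CPM against 22.8 to 25.9 CPM (-0.54 ± 0.11, adjusted p = 0.00737), and Cenpa at 109 and 87.5 CPM (-0.48 ± 0.11, adjusted p = 0.017). Gmnn (-0.29) and Top2a (-0.36) were the others. The WSB/EiJ count was 0 without AC635, 2 without AC627, and 3 without C57BL/6J line 44, either NZO/HiLtJ library or any PWK/PhJ library.

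Across strains, the order of Cdk6 in EpiSC ran from NOD/ShiLtJ (48.4 ± 11.2 CPM, SD, n = 2) and PWK/PhJ (54.5 ± 4.52, n = 3) through CAST/EiJ (88.7 ± 12.9, n = 2), to C57BL/6J (168 ± 51.6, n = 5) and WSB/EiJ (240 and 280 CPM), with NZO/HiLtJ at 110 and 138 CPM and the DBA/2J line at 274. NOD/ShiLtJ and PWK/PhJ overlapped, and NZO/HiLtJ and WSB/EiJ each overlapped with C57BL/6J, where line 2 was at 241 CPM. For Pcna in EpiSC, CAST/EiJ (180 and 194 CPM) and PWK/PhJ (207 to 216) stood below all other lines (318 to 414). For Ccnb1 in EpiSC, CAST/EiJ and PWK/PhJ overlapped at 194 to 214 CPM, WSB/EiJ followed at 235 and 245, and the other lines were at 323 to 463.

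In DE the strain differences of these genes were few. PWK/PhJ DE had 2 of 40 genes called, both lower than in C57BL/6J, where 17.1% of all genes were called (9.66% higher and 7.47% lower). Pcna was at 167, 120, 124 and 111 CPM in PWK/PhJ and 232, 154, 200, 162 and 170 CPM in C57BL/6J, with 1 PWK/PhJ library in the C57BL/6J range (log2 difference -0.48 ± 0.15, adjusted p = 0.0379). Cdkn1b was at 7.23, 5.92, 9.37 and 4.09 CPM against 19, 9.76, 12.6, 17.6 and 12.4 CPM, without overlap (-1.09 ± 0.32, adjusted p = 0.0275). Neither was called without AC695 or without AC705, and leaving out any 1 of 9 other libraries left 1 gene called: the C57BL/6J lines 2, 5-1, 4 and 1, AC671, AC699, AC698, AC635 and AC627. In PWK/PhJ DE, 4 of 15 fibroblast markers were higher (median log2 difference 2.10), 1 of 7 EpiSC markers was higher and 2 were lower. A fit with the fibroblast covariate was among the alternatives, and the part of the EpiSC markers in these 2 results was not tested.

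In NOD/ShiLtJ DE, 3 of 40 genes were called, where 11.4% of all genes were called (7.98% higher and 3.38% lower). Ccnd2 was at 169 and 195 CPM against 57.4, 45.3, 61.5, 45.5 and 31.7 CPM in C57BL/6J (log2 difference 1.93 ± 0.37, adjusted p = 0.00386). Ccnd3 was at 131 and 304 CPM against 69.4, 67.2, 75.5, 80.6 and 48.4 CPM (1.70 ± 0.29, adjusted p = 0.00215). Pcna was lower, at 121 and 108 CPM against 154 to 232 CPM (-0.66 ± 0.19, adjusted p = 0.0366). None of the 3 genes had overlapping libraries, and of the 40 genes 4 were higher and 5 lower without overlap, where 15.4% of all genes were higher and 11.4% lower in that way. In the same contrast 14 of 15 fibroblast markers were higher, with a median log2 difference of 3.89. Of 7 endoderm markers 6 were lower, with a median of -1.48, and of 7 EpiSC markers 1 was higher and 3 were lower. With the fibroblast covariate none of the 3 was called: Ccnd2 differed by 0.15 (adjusted p = 0.923), Ccnd3 by 1.44 (adjusted p = 0.223) and Pcna by -1.1 (adjusted p = 0.118). The mean log2 CPM of the fibroblast markers was 5.52 and 5.36 in the NOD/ShiLtJ libraries and at most 4.02 in other DE libraries. Strain and covariate are therefore hard to tell apart in that fit, and a lost call does not decide between them. Without AC576, Ccnd2 differed by 1.79 (adjusted p = 0.0679), Ccnd3 by 0.93 (adjusted p = 0.166) and Pcna by -0.61 (adjusted p = 0.315). Without C57BL/6J line 2 the count was 6.

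In WSB/EiJ DE, 1 of 40 genes was called, where 2.28% of all genes were called (1.19% higher and 1.09% lower). Bub1 was at 181 and 152 CPM against 49.7, 86.8, 93.4, 70 and 86.2 CPM (log2 difference 1.12 ± 0.21, adjusted p = 0.0099), and the call was lost without AC635. In NZO/HiLtJ DE, edgeR and DESeq2 each called 0 of 40 genes, where edgeR called 1.41% of all genes (0.918% higher and 0.492% lower), and 2 of 40 genes had an unadjusted p under 0.05, where 11.4% of all genes did. The single CAST/EiJ DE library had Bub1 at 180 CPM, Pcna at 130 CPM and Ccnb1 at 268 CPM, and it entered no strain contrast. The single DBA/2J DE library had Bub1 at 109 CPM, Pcna at 153 CPM and Ccnb1 at 229 CPM, the lowest Ccnb1 of any DE library.

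A test of the interaction asked whether the change from EpiSC to DE differed among the 5 strains, and 6 of 40 genes were called, where 10.7% of all genes were called. By the same test 3 of 7 EpiSC markers were called. Cdk6 (adjusted p = 0.00238) had lower mean levels in DE in all 5 strains. Its mean log2 CPM differed by -6.96 in C57BL/6J, -6.55 in NZO/HiLtJ, -7.63 in WSB/EiJ, -3.23 in PWK/PhJ and -1.86 in NOD/ShiLtJ. Of these 5 strains, the last 2 had the lowest EpiSC means (5.77 and 5.58) and the highest DE means (2.53 and 3.72). The other strains had EpiSC means of 6.95 to 8.02 and DE means of 0.38 to 0.4. The C57BL/6J DE mean had an SD of 2.33 and included line 1, with 1 count. Bub1 (adjusted p = 0.00783) changed by -1.58 in C57BL/6J, -1.18 in PWK/PhJ, -1.55 in NOD/ShiLtJ, -0.81 in NZO/HiLtJ and -0.36 in WSB/EiJ. Ccne2 (adjusted p = 0.00692) changed by 1.01, 1.20, -0.49, 0.75 and 1.19 in the same order of strains. Ccne2 was thus lower in DE than in EpiSC in NOD/ShiLtJ, at 39.6 and 43.7 CPM in DE and 66.3 and 51.5 CPM in EpiSC.

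Cdc25a (adjusted p = 0.0248) changed by -1.13 in NOD/ShiLtJ and by -0.12 to -0.53 in the other strains. Ccnd2 (adjusted p = 0.0337) changed by 0.53 in NOD/ShiLtJ and by -1.75 to -2.79 elsewhere, and Ccnd3 (adjusted p = 0.0253) by 1.14 in NOD/ShiLtJ, 0.49 in PWK/PhJ and -0.60 to 0.01 elsewhere. Within NOD/ShiLtJ, Ccnd2 went from 63.3 to 195 CPM in AC576 and from 249 to 169 CPM in AC595, so its 2 lines moved in opposite directions. The interactions of Bub1 and Cdk6 were called in every alternative fitted. That of Ccne2 was lost without the EpiSC library of AC576 (adjusted p = 0.0588), and that of Cdc25a without the same library (adjusted p = 0.125), without the DE library of AC595 (adjusted p = 0.102), with the line as a replicate block (adjusted p = 0.0929) or with the fibroblast covariate (adjusted p = 0.053). The call of Ccnd2 was lost in 14 of 31 fits that left out 1 library and that of Ccnd3 in 13 of 31.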

How the data were processed

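RNA-seq was analysed from 34 libraries in 2 tables of read counts per gene. Per the submitters' processing notes, the authors used STAR 2.4, HTSeq 0.6.1 and DESeq2 with the mm10 build. The deposited values are raw counts. For the annotation release, strandedness of counting and reads with several placements, the choice is not given in the sources used here. Every count column matched 1 sample by its name.

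Genes that reached 10 counts in 3 or more libraries were tested with edgeR 4.0.16 in R 4.3.3 (TMM scaling, robust quasi-likelihood F test, Benjamini-Hochberg adjustment over all genes tested, threshold 0.05). The DE and EpiSC fit held all 34 libraries with strain as a term, and strain fits held all 17 libraries of a cell type. The interaction came from a fit of group means. CPM values are the deposited counts scaled by TMM library sizes, and log2 CPM a prior count of 2. The standard error is the log2 fold change divided by the square root of F. P-values measure the spread between libraries of different cell lines. Lines had no repeat library of a cell type, so that spread also holds differences between cultures and library preparations. Scripts were tested on simulated data. Sequences came from RefSeq (GRCm38.p6), and gene positions and exon lengths from the GRCm38 annotation, with all annotated exons of a gene merged.

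The members and gene lists were chosen with earlier results of these data known. All 40 members are named. From each further list, up to 4 called genes with the largest absolute change and a mean log2 CPM of at least 3 are named per comparison. A member with under 30 summed counts in a group is given as counts.

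Alternatives were RLE scaling, DESeq2 1.42.0, no count filter, a fibroblast covariate, no strain term, the line as a replicate block, C57BL/6J only, and leaving out each library. Leaving out the NOD/ShiLtJ libraries and the fit of C57BL/6J only were added after seeing the data. Libraries of 1 line come from the same cells, which pairs them. In 14 lines, the deviations from the group means correlated at 0.001 to 0.147 (median 0.036), and 6 were above 0.1. Libraries of a group differed beyond counting noise, with a lowest chi-square per degree of freedom of 6.57 in EpiSC and 31.5 in DE.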

Additional observations from a re-analysis of the deposited data

Results flagged for a closer look

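In groups of 4 or 5 libraries, 120 checks were made for a library far from the others. Of these, 7 passed the critical value, where chance gives about 1 in 20, so the share that passed was near that background. In C57BL/6J DE, Ccnb1 was at 501 CPM in line 5-1 against 300 to 345 in the others. Ccne2 was at 46.4 CPM in line 2 against 67.6 to 76.9. Cdk4 was at 1550 CPM in line 2 against 928 to 1020, and Mcm3 at 419 CPM in line 44 against 241 to 280. In PWK/PhJ DE, Ccnd2 was at 27.4 CPM in AC695 against 73.4 to 85.7, and Cdk4 at 1120 CPM in AC699 against 866 to 879. In C57BL/6J EpiSC, Bub1b was at 182 CPM in line 5-1 against 224 to 243.

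The change from EpiSC to DE differed between strains, by edgeR's interaction test, for Bub1 (adjusted p = 0.00783), Ccnd2 (adjusted p = 0.0337), Ccnd3 (adjusted p = 0.0253), Ccne2 (adjusted p = 0.00692), Cdc25a (adjusted p = 0.0248) and Cdk6 (adjusted p = 0.00238). The change in NOD/ShiLtJ was the highest of the 5 strains for Ccnd2 and Ccnd3 and the lowest for Ccne2 and Cdc25a. NOD/ShiLtJ has 2 lines, and its DE libraries had the highest summed fibroblast markers of all DE libraries (1590 and 1910 CPM).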

How the results depend on the processing

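Among the 33 genes called between DE and EpiSC, 22 were called in every alternative and 30 in every fit without 1 library. Mcm2, Mcm7 and Cdc25c were the exceptions to the latter. No gene reversed its direction while called. The count of 33 became 32 with RLE scaling, 33 with DESeq2, 31 without the count filter, 28 with the fibroblast covariate, 31 without the strain term, 32 without NOD/ShiLtJ and 24 within C57BL/6J. With the line as a replicate block it was 29, and the interaction count was 5 in place of 6. The block ended the calls of Cdc25c, Mcm2, Mcm7 and Cenpa. TMM, RLE and DESeq2 scaling each placed the median of all genes at -0.06.

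Counts that moved by over 1.5 times were these. With DESeq2, NOD/ShiLtJ EpiSC went from 7 to 11, NZO/HiLtJ EpiSC from 1 to 2, the DE strain F test from 4 to 9, NOD/ShiLtJ DE from 3 to 6 and the interaction from 6 to 10. Without the count filter, NOD/ShiLtJ EpiSC had 4, CAST/EiJ EpiSC 9 in place of 16, and NOD/ShiLtJ DE 5. With the fibroblast covariate, NZO/HiLtJ EpiSC had 3, NOD/ShiLtJ DE 0 and WSB/EiJ DE 2. The cause was not tested.

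Leaving out 1 library in turn gave ranges of 31 to 34 (DE against EpiSC), 12 to 23 (EpiSC strain F test), 9 to 16 (PWK/PhJ EpiSC), 1 to 8 (NOD/ShiLtJ EpiSC), 0 to 2 (NZO/HiLtJ EpiSC), 0 to 5 (WSB/EiJ EpiSC) and 4 to 16 (CAST/EiJ EpiSC). In DE they were 2 to 7 (strain F test, with 2 without AC576 and 7 without line 2), 0 to 2 (PWK/PhJ), 0 to 6 (NOD/ShiLtJ, with 0 without AC576 and 6 without line 2), 0 to 0 (NZO/HiLtJ) and 0 to 1 (WSB/EiJ). The interaction ranged from 3, without the EpiSC library of AC576, to 10, without DE line 2 or AC653.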
